A study of Mus musculus with 23 samples.

Results

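The plasma serpins of the Serpina1 and Serpina3 families were followed in liver RNA sequencing of C57BL/6J mice. The members were 9 genes, Serpina1a, Serpina1b, Serpina1c, Serpina1d, Serpina1e, Serpina3c, Serpina3k, Serpina3m and Serpina3n, taken by symbol from a count table of 54838 genes, and all 9 had a row in it. The 23 libraries fall into 6 groups. In batch 2, mice were injected with FSTL3 (follistatin-like 3, which binds and inhibits activins), FCN2 (the plasma lectin ficolin-2), EPDR1 (a secreted relative of the ependymins) or vehicle, with 4 libraries in each group. In batch 1, mice were injected with LBP (lipopolysaccharide-binding protein), with 3 libraries numbered 2 to 4, or with vehicle, with 4 libraries. The series' design text gives recombinant proteins at 1 µg per g body weight in 3 injections at an interval of 1 day. No sex, age, genotype change or hour of sampling was given in the labels used here. The labels do not say that each library is a separate animal, so p-values measure the spread between these libraries, which may be partly technical. EPDR1, FCN2 and FSTL3 livers were set against the same 4 vehicle libraries, so these comparisons share their control.

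Serpins inhibit proteases as suicide substrates. The target protease cuts an exposed stretch near the carboxyl end, the reactive centre loop, and the serpin then changes shape and holds the protease in an inactive complex. Serpina1 genes encode alpha-1-antitrypsin, secreted by hepatocytes and best known for inhibiting neutrophil elastase. Serpina3 genes are the mouse relatives of human alpha-1-antichymotrypsin, a single gene in human that was duplicated many times in mouse. Both families are major products of the liver, and some copies are acute phase genes, induced in hepatocytes by cytokines of the interleukin-6 type and by glucocorticoid.

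Total counts per library ran from 773499 to 21892416. The 9 serpins together took 2.00% to 4.18% of the counts in 22 libraries and 1.52% in LBP replicate 2. That library stood apart from the rest. Albumin, the main hepatocyte product, made up 0.211% of that library, while the other 22 libraries had 5.26% to 8.36%, and its summed markers of pancreatic acinar cells reached 1749.5 CPM, against 7.78 to 108 CPM in vehicle livers of batch 1. The other LBP livers had 21.5 and 795 CPM of them. Results that rest on it are given with and without it. Of the 10 hepatocyte markers listed, 9 were found in the table, and all 9 had counts in every group.

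All 9 genes lie on chromosome 12 of GRCm38 in the files' annotation. The Serpina1 genes are on the minus strand, as Serpina1a (ENSMUSG00000066366, chr12:103853589-103863562), Serpina1b (ENSMUSG00000071178, chr12:103728156-103830373), Serpina1c (ENSMUSG00000079015, chr12:103894926-103904887), Serpina1d (ENSMUSG00000071177, chr12:103763594-103773592) and Serpina1e (ENSMUSG00000072849, chr12:103946931-103958975). Serpina3c (ENSMUSG00000066361, chr12:104146382-104153870) is also on the minus strand. The plus strand holds Serpina3k (ENSMUSG00000058207, chr12:104338486-104346144), Serpina3m (ENSMUSG00000079012, chr12:104338486-104394257) and Serpina3n (ENSMUSG00000021091, chr12:104406729-104414329).

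The coding sequence of the reactive centre loop is shown because it is the part that decides which protease a copy inhibits, and because reads over it help to tell some copies apart. It lies in exon 5 of 5 in each transcript read. In the Serpina1 genes the stretch is 87 bases long, and the capitals mark the 18 positions that are not the same in all 5 copies. The stretches of Serpina1a (chr12:103853750-103853836), Serpina1b (chr12:103728317-103728403), Serpina1c (chr12:103895087-103895173), Serpina1d (chr12:103763755-103763841) and Serpina1e (chr12:103947093-103947179) are given 5′ to 3′ on the minus strand of GRCm38, from GENCODE M21 transcripts.
Serpina1a: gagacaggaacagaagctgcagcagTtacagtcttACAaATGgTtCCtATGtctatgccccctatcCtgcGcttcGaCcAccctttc
Serpina1b: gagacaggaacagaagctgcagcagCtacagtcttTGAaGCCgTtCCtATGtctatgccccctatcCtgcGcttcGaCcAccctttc
Serpina1c: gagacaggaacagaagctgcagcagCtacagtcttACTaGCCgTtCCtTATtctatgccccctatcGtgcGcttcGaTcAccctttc
Serpina1d: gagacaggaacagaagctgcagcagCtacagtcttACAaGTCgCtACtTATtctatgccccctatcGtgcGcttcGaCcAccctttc
Serpina1e: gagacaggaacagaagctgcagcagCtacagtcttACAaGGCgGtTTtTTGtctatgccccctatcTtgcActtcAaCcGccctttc
In the Serpina3 genes the length differs, and the capitals mark the bases between the first 10 codons, which form the hinge of the loop, and the 5 codons that close the stretch. The stretches are those of Serpina3c (chr12:104147307-104147393, minus strand), Serpina3k (chr12:104345263-104345352, plus strand), Serpina3m (chr12:104393763-104393858, plus strand) and Serpina3n (chr12:104413442-104413537, plus strand), from the same source.
Serpina3c: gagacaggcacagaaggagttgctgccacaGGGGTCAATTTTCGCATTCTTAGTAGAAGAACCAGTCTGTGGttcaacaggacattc
Serpina3k: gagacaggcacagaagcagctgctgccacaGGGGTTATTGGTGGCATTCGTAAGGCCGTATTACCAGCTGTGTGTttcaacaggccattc
Serpina3m: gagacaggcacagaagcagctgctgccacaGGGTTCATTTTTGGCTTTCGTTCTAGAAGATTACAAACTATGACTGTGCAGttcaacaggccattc
Serpina3n: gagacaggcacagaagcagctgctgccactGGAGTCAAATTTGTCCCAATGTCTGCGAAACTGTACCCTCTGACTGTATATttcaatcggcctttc

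The loop stretches differed more between copies than the coding sequences as a whole. Over the coding sequence, the 10 pairs of Serpina1 genes were 96.3% to 98.5% identical and the 6 pairs of Serpina3 genes 82.7% to 91.1%. Over the loop stretch, identity was 86.2% to 94.3% in Serpina1 pairs and 70.1% to 78.9% in Serpina3 pairs. Reads were 50 bases long, and a stretch of 50 bases (a 50-mer) that also occurs in another gene cannot by itself place a read. The protocols give paired reads. If the reads of a pair were aligned together, which was not tested, the other read may still place such a read. The shares below are therefore not shares of uncounted reads. In Serpina1c 79.3% of the 50-mers occurred in another gene, most often in Serpina1a, and in Serpina1a 57.6% did. The share was 50.9% in Serpina1d, 34.6% in Serpina1e and 29.5% in Serpina1b. Serpina3 genes shared fewer, with 19.1% in Serpina3m, 14.04% in Serpina3k, 6.90% in Serpina3n and 4.25% in Serpina3c. Counts of single Serpina1 genes are therefore uncertain, most of all for Serpina1c and Serpina1a, and the sum over each family is given beside them. The loop stretch is not equally telling in all copies. In Serpina1c 100% of the 50-mers that touch it occurred in no other gene, against 20.7% over all its transcript sequence. In Serpina1a these values were 36.8% and 42.4%. The gene B430119L08Rik overlaps 429 of the 1361 exon bases of Serpina1c, and 60 exon bases are shared by Serpina3k and Serpina3m.

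**Figure D1:**
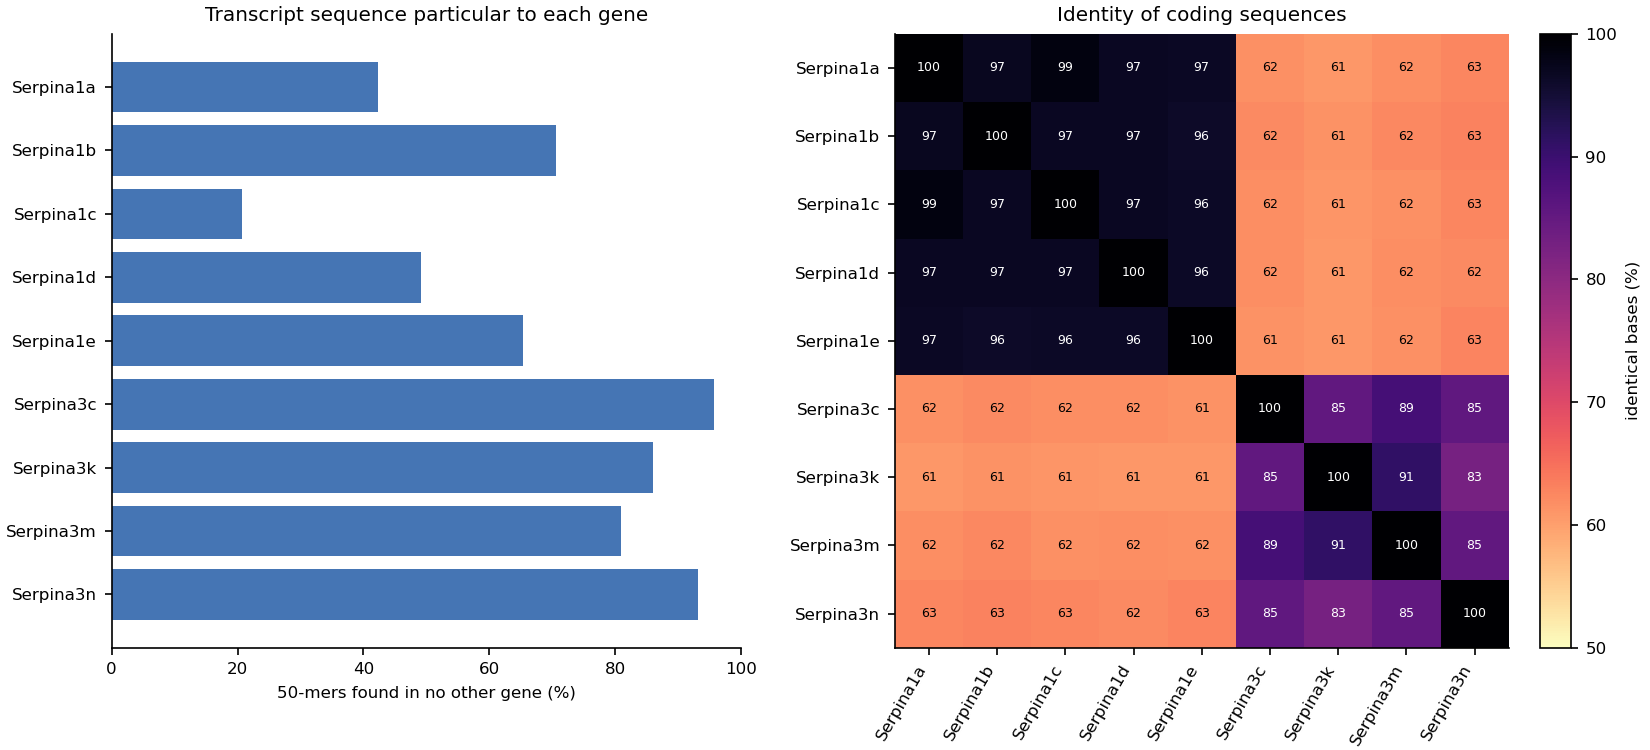
Left, percent of the 50-mers of each serpin gene that occur in no other gene; right, percent of identical coding bases for each pair of genes (rounded in the cells). Serpina1c has the smallest share of its own sequence, and the Serpina1 genes are 96.3% to 98.5% identical to one another.

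Serpina3k, known as contrapsin, and Serpina1e gave most of the serpin RNA. Levels are in CPM, that is counts scaled to the library total after TMM scaling, divided here by exon length in kb so that genes can be compared. In vehicle livers of batch 2 Serpina3k stood at 7344 ± 1054 CPM per kb (SD, n = 4) and Serpina1e at 6658 ± 1099.9 CPM per kb, with overlapping ranges. Serpina1b (1464 ± 89.6 CPM per kb), Serpina1d (1319.8 ± 54.6 CPM per kb) and Serpina1c (1135 ± 171 CPM per kb) came next, each overlapping its neighbour. Serpina1a was at 362 ± 39.9, Serpina3n at 193 ± 54.0 and Serpina3m at 109.8 ± 25.3 CPM per kb, with ranges that did not overlap. Serpina3c was the lowest, at 2.76 ± 0.545 CPM per kb. The order within the Serpina1 family depends on how much of each gene can be counted. Divided by each gene's own 50-mers instead, the mean level over all 23 libraries was 8073 CPM per 1000 such 50-mers for Serpina1e, 5264 for Serpina1c, 2645 for Serpina1d, 2008 for Serpina1b and 780.4 for Serpina1a, which puts Serpina1c above Serpina1d and Serpina1b.

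In FSTL3 livers both serpin families were lower than in vehicle livers of the same batch. Of the 9 members, 7 fell and none rose by edgeR's quasi-likelihood test with a Benjamini-Hochberg adjusted p under 0.05, the threshold for a call throughout. This comparison called 39.2% of the 11969 genes tested, and 16% of them as lower. Without LBP replicate 2, 8 members fell, with 56.8% of genes called and 25.4% as lower. All 9 members passed the filter on low counts. The median log2 fold change was -0.80 over the 9 members and 0.06 over all genes tested. For 8 of the 9 members the CPM ranges of the groups did not overlap, all lower in FSTL3 livers, and 53.7% of all genes tested had such ranges. In bulk RNA, fewer hepatocytes and less serpin RNA per hepatocyte cannot be told apart. Summed hepatocyte markers were at 98780 to 113048 CPM in FSTL3 livers and 91635 to 104012 CPM in vehicle livers of batch 2. Albumin makes up most of this sum, with 66457 CPM on average in vehicle livers of batch 2. Of the 9 hepatocyte markers tested, 1 rose and 1 fell in FSTL3 livers, and 2 rose and 3 fell without LBP replicate 2.

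The summed counts of the alpha-1-antitrypsin genes, after TMM scaling, were at 0.46 times their vehicle level in the edgeR fit. As a share of all counts, with no TMM scaling, they averaged 0.968% in FSTL3 livers and 1.80% in vehicle livers. Reads that fit several copies equally are not in this sum. The Serpina1 sum was 8679, 6898, 8135 and 10045 CPM in FSTL3 livers, against 19863, 18250.1, 18814 and 16464 CPM in vehicle livers. Every FSTL3 library lay below every vehicle library, with means of 8439 ± 1305 CPM in FSTL3 livers and 18348 ± 1422 CPM in vehicle livers (SD, n = 4 each). The log2 fold change was -1.12 ± 0.23 (SE, edgeR adjusted p = 0.000545).

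Serpina1e, the most abundant alpha-1-antitrypsin copy, had 4251, 2394, 3729 and 5263 CPM in FSTL3 livers and 12512, 11149, 11118 and 8282 CPM in vehicle livers. The groups did not overlap, and the log2 fold change of -1.46 ± 0.31 (adjusted p = 0.000666) was the largest fall in the family. Serpina1b had 1949.7, 1994, 1943 and 2138 CPM in FSTL3 livers and 3569, 3223, 3635 and 3713 CPM in vehicle livers. Its FSTL3 libraries lay close together, and it fell by 0.82 ± 0.22 on the log2 scale (adjusted p = 0.00496). Serpina1d fell by 0.65 ± 0.18 (adjusted p = 0.00594), with 1102 to 1312 CPM in FSTL3 livers and 1729 to 1898 CPM in vehicle livers. Serpina1c fell by 0.80 ± 0.26 (adjusted p = 0.0198), with 811 to 993 CPM in FSTL3 livers and 1314 to 1867 CPM in vehicle livers. The call of Serpina1c was lost without FSTL3 replicate 4 (adjusted p = 0.0547) or vehicle replicate 4 of batch 2 (adjusted p = 0.0631). Serpina1a, the least abundant copy, had 415 to 521 CPM in FSTL3 livers and 570.3 to 747 CPM in vehicle livers, and its log2 fold change of -0.53 ± 0.22 did not pass (adjusted p = 0.0607). It passed without FCN2 replicate 2 (adjusted p = 0.0464), FCN2 replicate 3 (0.0485), LBP replicate 2 (0.00581) or LBP replicate 4 (0.0349), in fits that share 1 estimate of the spread over all groups.

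Of the 4 Serpina3 genes 3 fell in FSTL3 livers. Serpina3k had 8797, 9787, 8862 and 7963 CPM in FSTL3 livers, against 17965, 14268, 15359 and 12837 CPM in vehicle livers. The groups did not overlap, and the log2 fold change was -0.77 ± 0.22 (adjusted p = 0.00665). Serpina3n, a strongly inducible acute phase gene that is known in mouse to inhibit granzyme B, had 167, 147, 182 and 169 CPM in FSTL3 livers and 388, 341, 558 and 307 CPM in vehicle livers. All FSTL3 libraries were below all vehicle libraries, and the log2 fold change was -1.26 ± 0.47 (adjusted p = 0.0362). That call was lost without FSTL3 replicate 1 (adjusted p = 0.0652), 2 (0.0773), 3 (0.0579) or 4 (0.0708) and without vehicle replicate 1 (0.0562) or 3 (0.109) of batch 2.

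Serpina3c, a rare transcript in these livers, was nearly absent from the FSTL3 counts. It had 2, 0, 1 and 4 reads in FSTL3 livers and 21, 127, 19 and 16 reads in vehicle livers. In CPM this is 0.184, 0, 0.0904 and 0.333 in FSTL3 livers, against 5.23, 5.78, 7.89 and 5.55 in vehicle livers, and the groups did not overlap. The count of 0 in FSTL3 replicate 2 allows a level of up to 0.261 CPM, which corresponds to 3 reads. Pooled over libraries, the FSTL3 level was 0.0263 times the vehicle level (7 against 183 reads, exact 95% interval 0.0104 to 0.0553 for counting error only), and edgeR's adjusted p was 3.14e-07. Serpina3m, the neighbour of Serpina3k on the chromosome, was not called. It had 242, 192, 246 and 254 CPM in FSTL3 livers and 228, 172, 220.1 and 135 CPM in vehicle livers, with overlapping ranges and a log2 fold change of 0.31 ± 0.29 (adjusted p = 0.437). The Serpina3 sum, nearly all of it Serpina3k, averaged 9252 ± 712 CPM in FSTL3 livers and 15701 ± 2250.4 CPM in vehicle livers (log2 fold change -0.76 ± 0.22, adjusted p = 0.00871).

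**Figure D2:**
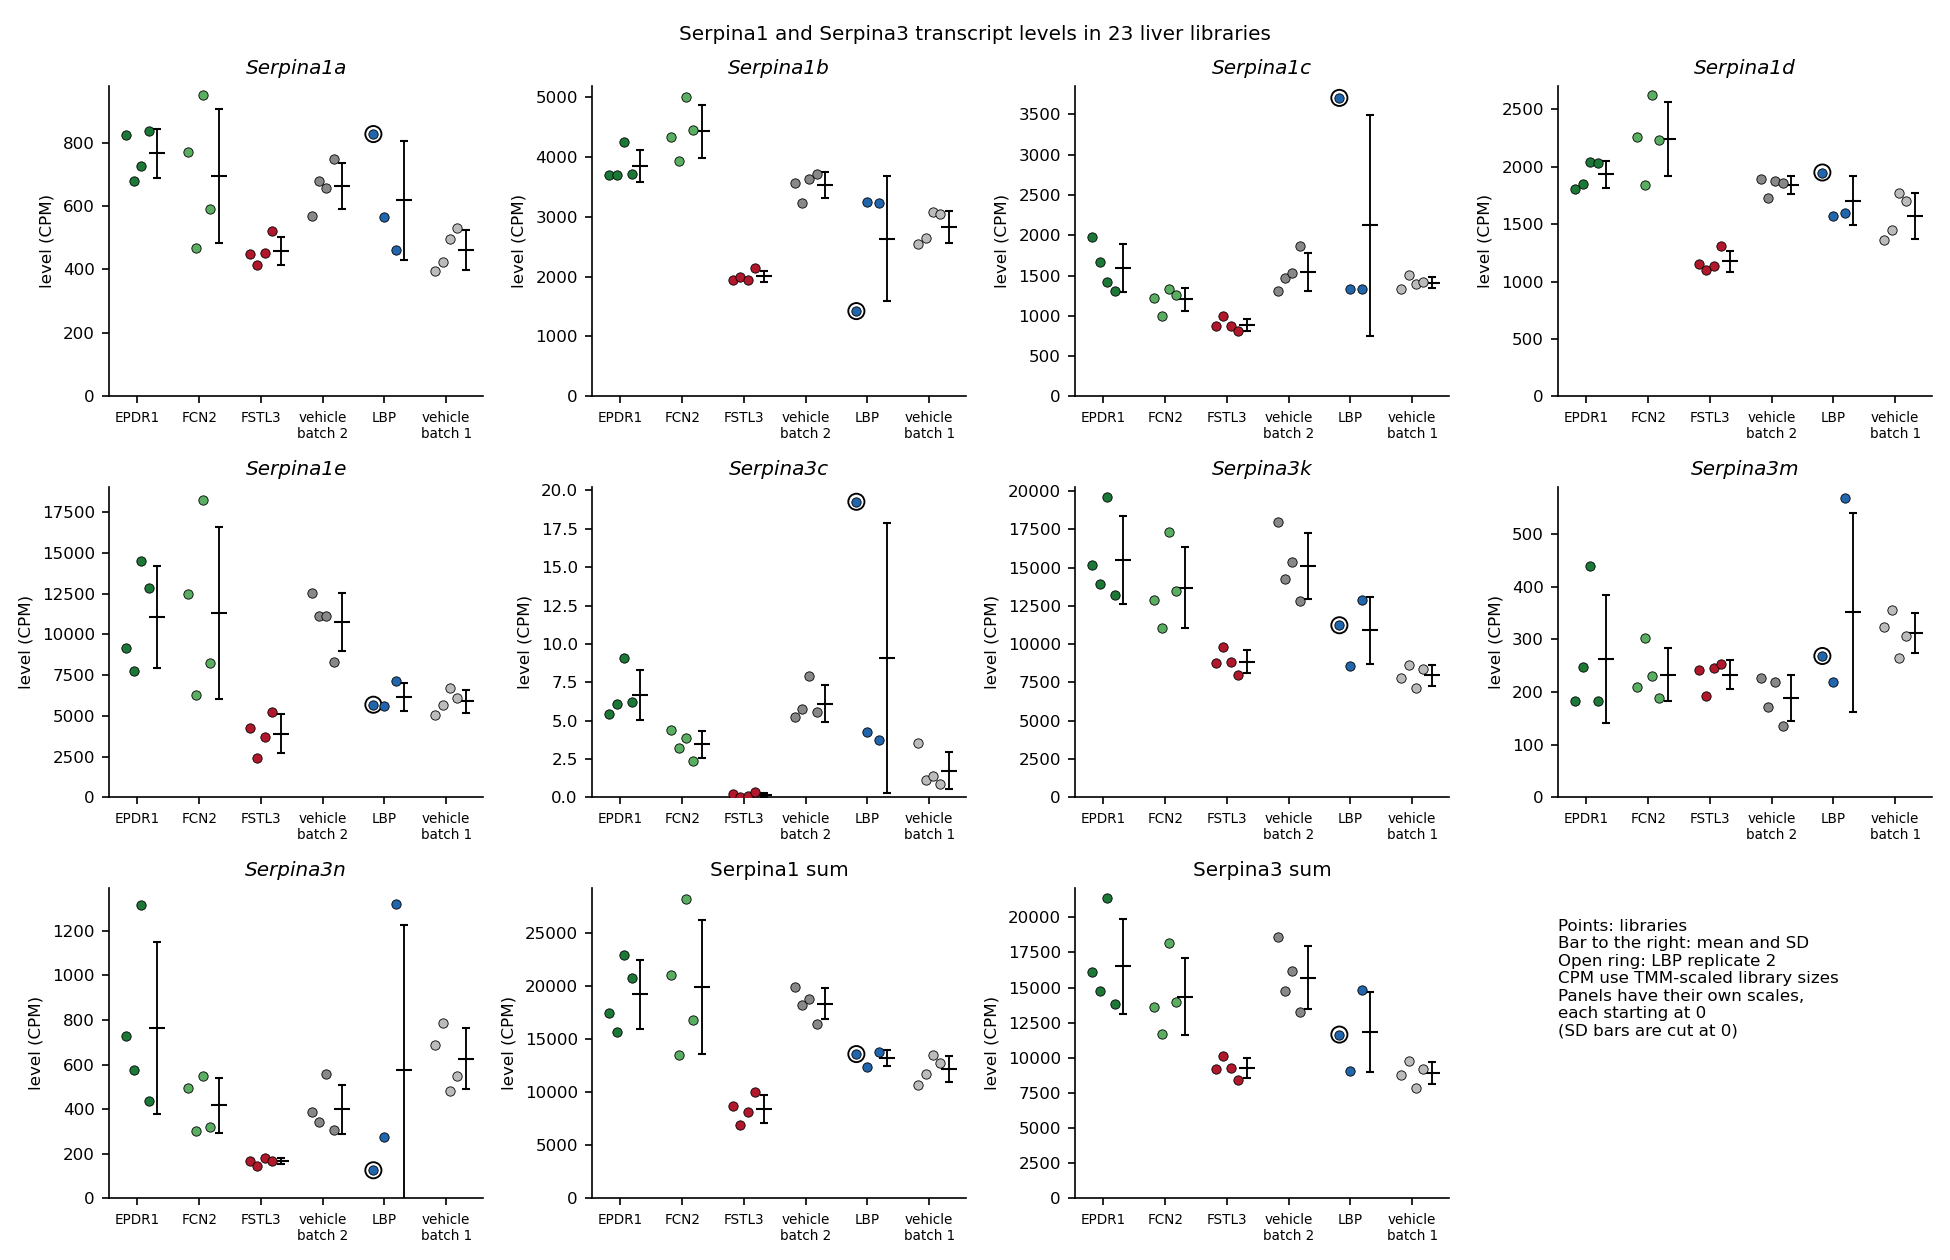
Level of each serpin gene and of the 2 family sums (CPM, each axis from 0) by group; points are libraries, bars the mean and SD, and the ring marks LBP replicate 2. Serpina1b lies at 1943 to 2138 CPM in the 4 FSTL3 livers, below the lowest batch 2 vehicle liver at 3223 CPM.

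FSTL3 livers differed from vehicle livers of batch 2 in other measures as well, and the part of these in the serpin results was not tested. That comparison called 39.2% of all genes, and 16% as lower, or 56.8% and 25.4% without LBP replicate 2. Of 7 markers of sinusoidal endothelium, 4 rose in FSTL3 livers and none fell, and their sum was 464 to 563 CPM in FSTL3 livers and 164 to 202 CPM in vehicle livers. Of 9 Kupffer cell markers, 4 fell and none rose, and 7 fell without LBP replicate 2, with sums of 144 to 156 CPM in FSTL3 livers and 176 to 474 CPM in vehicle livers. Of 5 neutrophil markers 2 were tested and both fell. Their sum over all 5 was at 0.0869 to 0.452 CPM in FSTL3 livers, where Mpo and Ly6g had no counts, and 2.78 to 16.2 CPM in vehicle livers. Of 5 cholangiocyte markers 3 were tested and 1 fell, or 2 without LBP replicate 2, and their sum was 22.9 to 33.4 CPM in FSTL3 livers and 43.6 to 73.1 CPM in vehicle livers. The acinar sum was 5.67 to 11.8 CPM in FSTL3 livers, where 7 of the 10 markers (Cela3b, Cpa1, Cpb1, Pnlip, Ctrb1, Amy2a5 and Prss2) had no counts, and 17.004 to 43.8 CPM in vehicle livers, with none of 9 markers called. Of 6 stellate cell markers 1 rose, and the sums overlapped. Small RNA genes took 0.667% to 0.753% of the counts in FSTL3 livers and 0.00560% to 0.00773% in vehicle livers. Depth differed too, at 9298871 to 10930800 counts in FSTL3 libraries and 2517701 to 21892416 counts in vehicle libraries.

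Genes of the circadian clock, named here with earlier results of these data known, also separated the groups. Arntl, a core activator of the clock, lay at 2.43 to 5.59 CPM in FSTL3 livers, 15.8 to 32.9 CPM in vehicle livers of batch 2 and 1.14 to 4.95 CPM in vehicle livers of batch 1. Dbp, a clock-driven factor of another phase, lay at 24.1 to 41.4 CPM in FSTL3 livers, 0.747 to 11.1 CPM in vehicle livers of batch 2 and 60.1 to 95 CPM in vehicle livers of batch 1. The part of this difference in the serpin results was not tested.

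Vehicle livers of batch 1 overlapped the FSTL3 livers in Arntl and lay above them in Dbp, without overlap. Against these vehicle livers, 2 of the 9 members were called in FSTL3 livers, both lower. That comparison called 31.9% of genes, and 13.2% as lower. Serpina3c was lower by -3.31 ± 0.68 on the log2 scale (adjusted p = 0.000635) and Serpina3n by -1.91 ± 0.48 (adjusted p = 0.00362). Serpina3k, at 8852 ± 746 CPM in FSTL3 livers and 7971 ± 671 CPM in batch 1 vehicle livers, turned direction to 0.15 ± 0.21 (adjusted p = 0.635). The Serpina1 sum, at 8439 ± 1305 CPM in FSTL3 livers and 12167 ± 1225 CPM in batch 1 vehicle livers, had a log2 fold change of -0.53 ± 0.23 (adjusted p = 0.0834). Ranges did not overlap for 6 members, all lower in FSTL3 livers, and 51.2% of all genes had such ranges. Protein and batch differ together here and cannot be told apart.

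**Figure D3:**
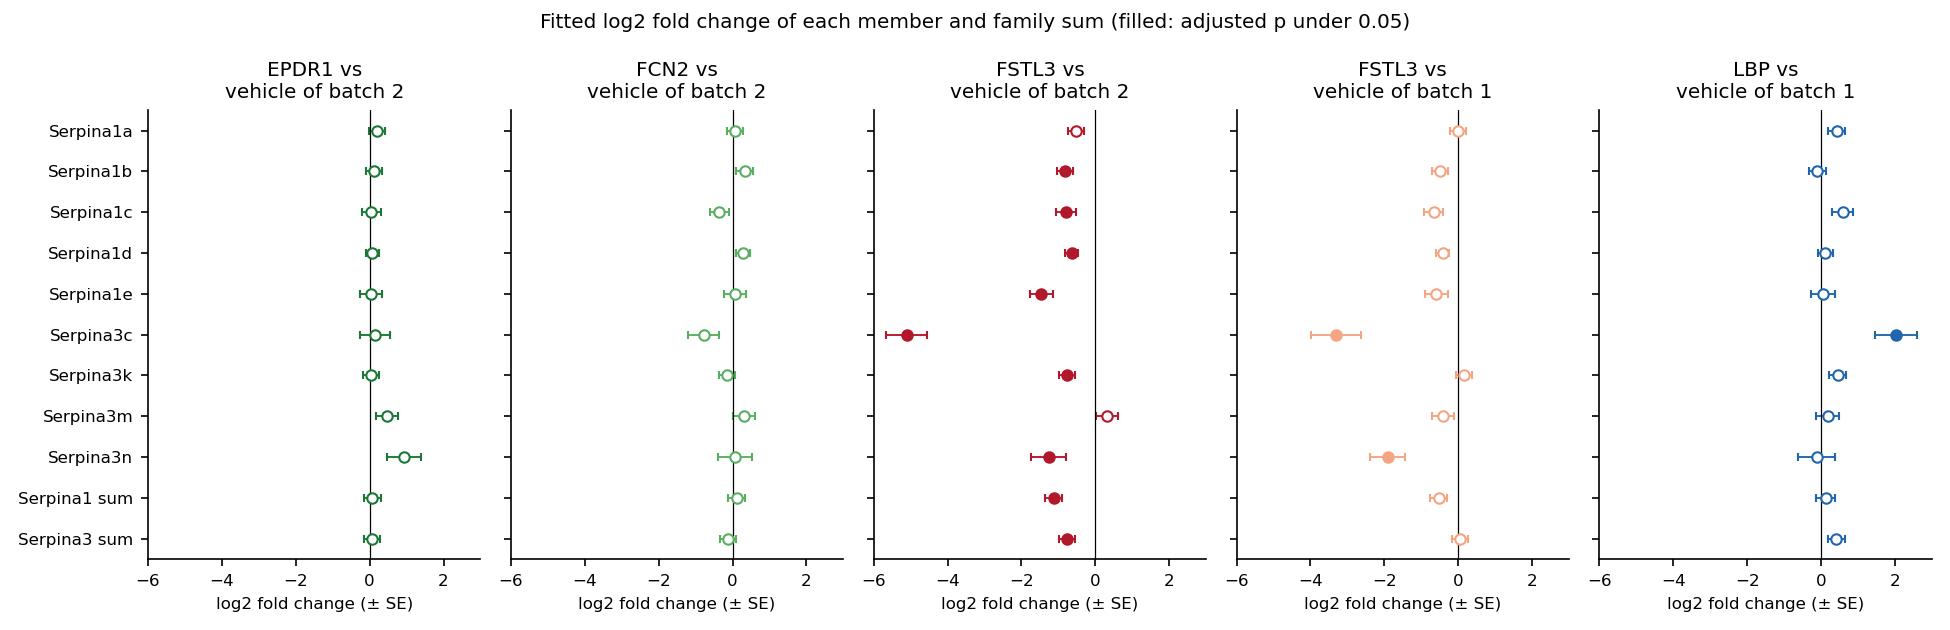
Fitted log2 fold change (± SE) of each member and family sum in 5 comparisons; filled points have an adjusted p under 0.05. FSTL3 livers have 7 filled members against the vehicle of batch 2 and 2 (Serpina3c and Serpina3n) against the vehicle of batch 1.

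FSTL3 livers also had less serpin RNA than livers given the other proteins of batch 2. Against EPDR1 livers 8 of the 9 members were lower in FSTL3 livers, in a comparison that called 42% of genes, and 18% as lower. Against FCN2 livers 7 were lower, with 44.3% of genes called, and 18.4% as lower. The Serpina1 sum had a log2 fold change of -1.19 ± 0.23 against EPDR1 (adjusted p = 0.000307) and of -1.24 ± 0.23 against FCN2 (adjusted p = 0.000181). Serpina3n stood at 166 ± 14.5 CPM in FSTL3 livers and 764 ± 387 CPM in EPDR1 livers (log2 fold change -2.20 ± 0.48, adjusted p = 0.000879). Serpina3m passed in neither comparison, at -0.17 ± 0.29 against EPDR1 (adjusted p = 0.663) and 0.00 ± 0.29 against FCN2 (adjusted p = 0.997). Serpina1c did not pass against FCN2 (-0.44 ± 0.26, adjusted p = 0.182). Without FCN2 replicate 3, which had the highest Serpina1 sum of all libraries (28169.7 CPM), 4 members were called against FCN2, with 40.7% of genes called and 16.8% as lower. Without LBP replicate 2 there were 8, with 60.8% of genes called and 26.8% as lower.

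No member was called in EPDR1 livers. By edgeR 0% of genes were called in that comparison, by DESeq2 and limma-voom 0 genes as well, and 493 genes had an unadjusted p under 0.05, none of them a member. The Serpina1 sum averaged 19204 ± 3248 CPM in EPDR1 livers and 18348 ± 1422 CPM in vehicle livers (log2 fold change 0.07 ± 0.23). The Serpina3 sum averaged 16524 ± 3381 CPM in EPDR1 livers and 15701 ± 2250.4 CPM in vehicle livers (0.07 ± 0.22). Serpina3n had the largest difference, with 729, 576, 1315 and 435 CPM in EPDR1 livers and 388, 341, 558 and 307 CPM in vehicle livers. The groups overlapped, and the log2 fold change of 0.94 ± 0.46 had an unadjusted p of 0.0555 (edgeR, adjusted p = 1). It was 0.54 ± 0.48 without EPDR1 replicate 3 and at most 1.15 when another library was left out. EPDR1 replicate 3 was the highest of its group for Serpina1b, Serpina1d, Serpina1e and all 4 Serpina3 genes. No member had ranges without overlap, against 4.23% of all genes.

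FCN2 livers showed no called member by edgeR, DESeq2 or limma-voom, with 0.81% of genes called by edgeR and 2069 genes, none a member, at an unadjusted p under 0.05. Of 11969 genes, DESeq2 called 763 and limma-voom 128. Serpina1b came closest. It had 4327, 3935, 5003 and 4446 CPM in FCN2 livers and 3569, 3223, 3635 and 3713 CPM in vehicle livers, so the groups did not overlap. Its log2 fold change of 0.32 ± 0.22 (adjusted p = 0.457) passed without LBP replicate 2 (0.32 ± 0.11, adjusted p = 0.0452), in a fit that called 18.9% of genes, and 8.81% as higher. Serpina3c also had ranges without overlap, at 4.37, 3.20, 3.89 and 2.35 CPM in FCN2 livers and 5.23, 5.78, 7.89 and 5.55 CPM in vehicle livers (log2 fold change -0.78 ± 0.42, adjusted p = 0.353). Such ranges were found in 18.6% of all genes. Serpina1e varied most between FCN2 livers, from 6307 to 18250.4 CPM, against 8282 to 12512 CPM in vehicle livers, and its log2 fold change was 0.07 ± 0.30. EPDR1 and FCN2 livers, set against each other, differed in no member by edgeR (0% of genes called) or by DESeq2 (71 genes called). At an unadjusted p under 0.05 that comparison had 1097 genes, 1 of them a member, Serpina3c.

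In LBP livers the only called member was Serpina3c, which was higher than in vehicle livers of batch 1, in a comparison that called 7.7% of genes, and 6.73% as higher. It had 17, 13 and 14 reads in LBP livers and 10, 1, 13 and 3 reads in vehicle livers. Scaled to depth, this is 19.3, 4.23 and 3.77 CPM in LBP livers and 3.53, 1.14, 1.41 and 0.875 CPM in vehicle livers. These ranges did not overlap, which held for 10.9% of all genes, but the highest value was that of LBP replicate 2. The log2 fold change was 2.02 ± 0.56 (adjusted p = 0.0298) with that library and 1.21 ± 0.48 (adjusted p = 0.232) without it, in a fit that called 0.727% of genes. The call was also lost without vehicle replicate 2 (adjusted p = 0.0583), 3 (0.111) or 4 (0.0903) of batch 1. LBP replicate 2 differed from the other LBP livers in the makeup of the Serpina1 family too, with 3705 CPM of Serpina1c, against 1327 and 1335 CPM, and 1423 CPM of Serpina1b, against 3225 and 3242 CPM.

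Serpina3n scattered widely among LBP livers, at 126, 276 and 1322 CPM, against 688, 784, 482 and 549.5 CPM in vehicle livers. Its log2 fold change was -0.12 ± 0.50 (adjusted p = 0.934), and it reached -1.64 ± 0.42 (adjusted p = 0.00830) without LBP replicate 4, the library at 1322 CPM. Serpina3k had 11238, 8594 and 12912 CPM in LBP livers and 7761, 8633, 7127 and 8363.5 CPM in vehicle livers. The groups overlapped and edgeR did not call it (0.45 ± 0.23, adjusted p = 0.251), while DESeq2 did (0.55 ± 0.18, adjusted p = 0.0317). The family sums were 13226 ± 765 CPM in LBP livers and 12167 ± 1225 CPM in vehicle livers for Serpina1, and 11850.1 ± 2861 CPM in LBP livers and 8911 ± 803 CPM in vehicle livers for Serpina3, neither of them called.

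The vehicle livers themselves differed between batches. Vehicle livers of batch 1 had lower Serpina3k (7971 ± 671 CPM) than those of batch 2 (15107 ± 2167 CPM), a log2 fold change of -0.92 ± 0.22 (adjusted p = 0.00803). Serpina3c was also lower in batch 1, at 1.74 ± 1.22 CPM, than in batch 2, at 6.11 ± 1.21 CPM (-1.79 ± 0.49, adjusted p = 0.0196). These 2 were the only members called, in a comparison that called 12.2% of genes, and 5.41% as lower. Without LBP replicate 2 there were 5, all lower, with 30.3% of genes called, and 14.9% as lower. The count was 1 without vehicle replicate 3 of batch 1, with 7.27% of genes called and 3.17% as lower, or replicate 4, with 7.17% called and 3.07% as lower. Ranges did not overlap for 6 members, against 31.6% of all genes, with Serpina3m the only one higher in batch 1.

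The makeup of each family is the share of its counts that each copy took. In FSTL3 livers Serpina1e took 45.5 ± 7.67% of the Serpina1 counts, against 58.4 ± 5.61% in vehicle livers of batch 2. Serpina1a took 5.48 ± 0.393% in FSTL3 livers and 3.65 ± 0.690% in vehicle livers, and Serpina1d 14.1 ± 1.33% in FSTL3 livers and 10.1 ± 0.829% in vehicle livers. In the Serpina3 family Serpina3m took 2.55 ± 0.472% in FSTL3 livers and 1.19 ± 0.144% in vehicle livers, with no overlap, and Serpina3k 95.6 ± 0.720% in FSTL3 livers and 96.2 ± 0.735% in vehicle livers. Of 36 exact 2-sided permutation tests of such shares over the 4 proteins, 5 had an unadjusted p of 0.0286, the smallest that 4 against 4 allows, all in FSTL3 livers. The 9 tests of LBP livers, with 3 libraries against 4, could not go below 0.0571. The smallest p adjusted over the 36 tests was 0.206, and with such smallest possible values the adjusted p does not tell whether shares differed.

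**Figure D4:**
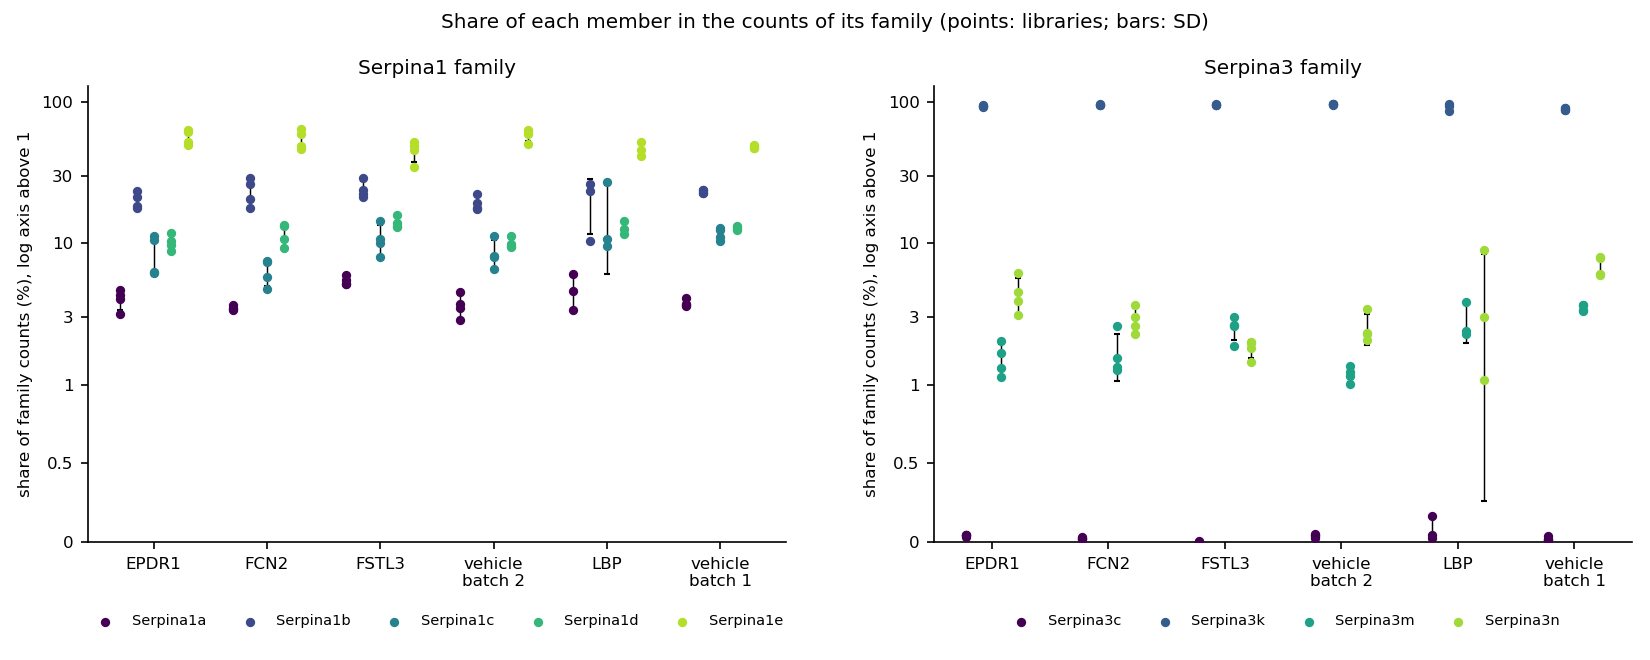
Share of each member in the counts of its family by group (percent, linear below 1 and logarithmic above); points are libraries and bars the SD. Serpina3k takes 95.6% on average of the Serpina3 counts in FSTL3 livers, and the Serpina1c point at 27.3% is LBP replicate 2.

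Promoters are shown for Serpina3c and Serpina3n, the members called lower in FSTL3 livers both against the vehicle of batch 2 and against that of batch 1. Serpina1b, Serpina1c and Serpina1d also had FSTL3 ranges below those of both vehicle groups. They were not called against batch 1 (log2 fold changes -0.50, -0.67 and -0.42). RefSeq promoter entries (GRCm38.p6, 250 bases before to 50 after the start) were used for 7 of the 9 members. The entries for Serpina3c (chr12:104153823-104154122, minus strand) and Serpina3n (chr12:104406458-104406757, plus strand) are 89.9% identical, and the capitals mark a match to the palindromic motif of the glucocorticoid receptor (GNACA, 3 bases of any kind, then TGTNC, the same on both strands).
Serpina3c: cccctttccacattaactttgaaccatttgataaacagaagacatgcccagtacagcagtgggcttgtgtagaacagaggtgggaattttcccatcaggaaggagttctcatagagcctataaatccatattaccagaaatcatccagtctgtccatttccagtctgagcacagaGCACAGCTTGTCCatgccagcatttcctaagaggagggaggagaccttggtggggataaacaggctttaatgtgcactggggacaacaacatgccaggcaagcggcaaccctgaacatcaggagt
Serpina3n: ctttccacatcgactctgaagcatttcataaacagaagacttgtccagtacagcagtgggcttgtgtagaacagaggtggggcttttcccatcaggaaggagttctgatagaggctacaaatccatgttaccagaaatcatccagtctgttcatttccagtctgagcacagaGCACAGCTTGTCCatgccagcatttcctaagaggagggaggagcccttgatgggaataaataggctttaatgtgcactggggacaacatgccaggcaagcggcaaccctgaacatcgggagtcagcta
That motif was found in 0.475% of the 32851 promoters in the table and in none of the 5 Serpina1 promoters. The motif TTCNNNGAA of STAT factors, also a palindrome, was found in 8.30% of promoters and in none of the 7, and the palindromic HNF1 motif in 0.009% of promoters and in none of the 7. The motif TATAAA, searched on both strands, was found in 13.6% of promoters and, among the members, in that of Serpina3c. The 2 matches in the Serpina3c promoter do not overlap. A match is a description of the sequence, and no match says only that these letters are not in the window.

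Related serpins were read from lists chosen with earlier results known. The FSTL3 comparison called 39.2% of all genes tested, and 16% as lower. Of 16 other clade A serpins 9 passed the filter, and 4 of these fell in FSTL3 livers. They were Serpina3h (-3.44 on the log2 scale, adjusted p = 1.32e-05), Serpina10, an inhibitor of activated coagulation factor X (-1.04, 0.00670), Serpina9 (-1.83, 0.0106) and Serpina12, known as vaspin (-2.08, 0.0355). Corticosteroid-binding globulin, Serpina6, averaged 94.6 CPM in FSTL3 livers and 125 CPM in vehicle livers and did not pass. Of 7 plasma serpins of other clades 6 were tested, and Serping1, the inhibitor of complement C1, was the only one that fell (-0.90, adjusted p = 0.0121). Without LBP replicate 2 these counts were 5 and 3, with 56.8% of genes called and 25.4% as lower. In LBP livers, where 7.7% of genes were called and 6.73% as higher, Serpina11 and Serpina12 were called higher with LBP replicate 2. Neither was called without it, in a fit that called 0.727% of genes. No related serpin was called in EPDR1 or FCN2 livers by edgeR with all libraries. Serpina6 rose in FCN2 livers without LBP replicate 2 (0.96, adjusted p = 0.00375), in a fit that called 18.9% of genes. Serpina1f had 46 reads in all, every one in LBP replicate 3.

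Among 15 regulators of hepatocyte serpin genes, 4 rose and 2 fell in FSTL3 livers, and 5 rose and 3 fell without LBP replicate 2. Of all genes tested, 39.2% were called in that comparison, or 56.8% without that library, close to the share called among the regulators. The glucocorticoid receptor Nr3c1 was at 181 ± 10.9 CPM in FSTL3 livers and 109 ± 14.96 CPM in vehicle livers (log2 fold change 0.73 ± 0.14, adjusted p = 0.000330), and Cebpb rose by 0.97 ± 0.26 (adjusted p = 0.00509). The forkhead factor Foxa2 fell by 0.95 ± 0.23 (adjusted p = 0.00266), and Socs3, an inhibitor that interleukin-6 signalling induces, by 1.62 ± 0.43 (adjusted p = 0.00455). Of 16 other secreted acute phase products 13 fell and none rose, with a median log2 fold change of -2.01. Of all genes tested, 16% were called as lower. Serum amyloid A1 (Saa1) was at 14.7 ± 3.99 CPM in FSTL3 livers and 1465 ± 1828 CPM in vehicle livers, where the spread between libraries was wider than the mean (-6.64 ± 1.21, adjusted p = 0.000159). Apcs, serum amyloid P, was at 43.6 ± 11.4 CPM in FSTL3 livers and 204 ± 97.3 CPM in vehicle livers (-2.22 ± 0.38, adjusted p = 8.94e-05).

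Of 15 genes for folding and export of secreted proteins, 3 fell and 1 rose in FSTL3 livers, and 5 fell and 2 rose without LBP replicate 2. These shares were below those of all genes tested, at 39.2% called, or 56.8% without that library. The chaperone calreticulin (Calr) fell by 1.198 ± 0.203 on the log2 scale (adjusted p = 6.99e-05) and the ubiquitin ligase Syvn1 by 1.84 ± 0.49 (adjusted p = 0.00472), while Sec24a, a coat protein of export vesicles, rose by 1.09 ± 0.30 (adjusted p = 0.00564). Of 13 target proteases and uptake receptors 9 were tested, and 2 fell and 2 rose, against 4 and 2 without LBP replicate 2. For these counts too, 39.2% of all genes were called, or 56.8% without that library. Lrp1, the receptor that clears serpin-protease complexes, rose by 1.29 ± 0.22 (adjusted p = 7.62e-05). Proteinase 3 (Prtn3), a neutrophil protease that alpha-1-antitrypsin inhibits, fell by 4.202 ± 0.892 (adjusted p = 0.000716). In EPDR1 and FCN2 livers no gene of these 4 lists was called with all libraries. Without LBP replicate 2, 2 regulators rose and 3 fell in FCN2 livers, in a fit that called 18.9% of genes. There 4 genes of folding and export, 1 target protease or receptor and 1 acute phase product fell, and none rose. In EPDR1 livers that fit called 0 genes. In LBP livers Cebpb (-1.66 ± 0.30, adjusted p = 0.00865) and Cebpd (-1.59 ± 0.37, adjusted p = 0.0136) fell, as did Lrp1 (-1.05 ± 0.24, adjusted p = 0.0133), with and without LBP replicate 2. The LBP comparison called 7.7% of genes with LBP replicate 2 and 0.727% without it. Canx (0.72, adjusted p = 0.0461) and Orm1 (1.43, adjusted p = 0.0363) were called higher there with LBP replicate 2, and had 0.38 (adjusted p = 0.249) and 0.55 (adjusted p = 0.523) without it. Of 9 acinar markers tested 5 were called higher with that library and none without it, while all 9 log2 fold changes stayed positive without it, at 2.44 to 4.83.

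Levels of some members moved together over the 23 libraries, which share batch, group and depth differences, so correlations are given as descriptions. Spearman's rho was 0.86 between Serpina1d and Serpina1e, 0.79 between Serpina1b and Serpina1d and 0.81 between Serpina1e and Serpina3k. It was lower for Serpina1c, at 0.12 to 0.46 with the other Serpina1 genes and 0.29 with Serpina3k. Serpina3n had 0.10 to 0.46 with the Serpina1 genes and 0.31 with Serpina3k. Serpina3m had a rho of -0.45 to -0.0079 with the Serpina1 genes, -0.33 with Serpina3k and 0.36 with Serpina3n. Signs were not the same within groups. For log2(CPM + 1) less its group mean, Pearson's r of Serpina3m over the 23 libraries was 0.56 with Serpina3k, 0.71 with Serpina3n and -0.46 to 0.28 with the Serpina1 genes. In that measure Serpina1d and Serpina1e had 0.67, Serpina1e and Serpina3k 0.45, and Serpina1b and Serpina1d -0.038 with LBP replicate 2 and 0.90 without it. Serpina1d shares 37.7% of its 50-mers with Serpina1b, and the part of this in their likeness was not tested. Outside the clade A serpins, among 7282 genes at a mean of at least 10 CPM, the genes most like the Serpina1 sum were Mrpl42 (rho 0.90), Nudt7 (0.89), Fabp5 (0.89), Hnrnpa2b1 (0.88) and Sdf2 (0.88). Those most like Serpina3k were Mup18 (0.90), Hao1 (0.89), Cyp2c70 (0.87), Gm30262 (0.86) and Hnrnpa3 (0.85). Those most like Serpina3n were Prg4 (0.93), Plscr1 (0.88), Lbp (0.87), Tnfrsf1a (0.87) and Bcl3 (0.86). Without LBP replicate 2, 7 of these 15 were still among the 5 nearest of their serpin.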

How the data were processed

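Liver RNA was sequenced in 23 libraries of 6 groups, taken from the sample titles. The authors deposited a table of read counts for each gene, not normalized. Per the labels' protocols, libraries were made from 800 ng of total RNA and sequenced as paired reads of 50 bases. The submitters' processing notes name STAR 2.6.0c and the build GRCm38. Per the file headers, featureCounts 1.6.3 counted reads in exons of Ensembl 95. Its recorded command has no option for strand, read pairs or multiple hits, and the program then counts each read singly, ignores strand and leaves out reads with several hits. Reads that fit several serpin copies equally are then not counted. No gene-less rows or unused sample columns were present (0 columns).

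Total counts were 773499 to 21892416 per library, and intervals and floors cover counting error only. Replicates of a group were compared pairwise (33 pairs, smallest chi-square per degree of freedom 2.47), and none agreed within sampling noise. Genes were kept by filterByExpr (11969), scaled by TMM and tested with edgeR 4.0.16 (quasi-likelihood, robust) in R 4.3.3, with a mean per group, all 23 libraries in the fit and Benjamini-Hochberg adjustment over all genes tested. Family sums were tested by refitting the table with each family as 1 row. Without LBP replicate 2, 12244 genes were tested and the common dispersion was 0.0298, against 0.0774 with it. The test was tried on simulated counts first. DESeq2 1.42.0, limma-voom 3.58.1, other scalings and filters, other controls, a replicate block and leaving out each library were the alternatives. Family shares were tested by exact permutation (scipy 1.17.1). 50-mers were searched in 141767 GENCODE M21 transcripts.

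The members, gene lists and clock genes were chosen with earlier results of these data known. All members and sums were tested in each comparison, and the text does not name each of them in each. Of the other lists at most the 4 called genes with the smallest p were named, any measured gene of the 2 serpin lists, and the 5 genes nearest in Spearman's rho to the Serpina1 sum, Serpina3k and Serpina3n. Cell markers are given as sums and counts, with genes at 0 named.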

Additional observations from a re-analysis of the deposited data

Results flagged for a closer look

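Serpina1b in EPDR1 replicate 3 was at 4241 CPM, against 3699 to 3717 CPM in the other 3 EPDR1 libraries, so that the gap to the nearest library was 0.966 of the group's range. It was the only value that stood apart in this way among 55 sets of libraries (a gene or family sum in a group of 4), and chance marks about 1 in 20 such sets.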

How the results depend on the processing

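Values are log2 fold changes against the vehicle of the same batch unless a count is named. In FSTL3 livers the Serpina1 sum stayed negative in all settings and past the threshold in all but 1, and when single libraries were left out it ranged between -1.21 and -1.06, the Serpina3 sum between -0.84 and -0.67, and the number of called members between 5 and 8. Calls weakened with no TMM factor (3 members, Serpina3 sum -0.53, adjusted p = 0.0923), with no filter on low counts (4 members, Serpina3 sum -0.74, adjusted p = 0.0796), with the vehicles pooled (Serpina3 sum -0.36, adjusted p = 0.153, Serpina3m -0.057) and with the vehicle of batch 1 as control (2 members, Serpina1 sum -0.53, Serpina3 sum 0.053, Serpina3k 0.15, Serpina3m -0.42), and the cause was not tested. Genes called in all numbered 4645 of 11969 with no TMM factor and 7190 of 31250 with no filter. They numbered 4726 of 11969 with the vehicles pooled and 3817 of 11969 with the vehicle of batch 1.

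In EPDR1 livers signs turned with no TMM factor (Serpina1c -0.013, Serpina1e -0.030, Serpina3k -0.034, Serpina1 sum -0.0012). In FCN2 livers they turned with limma-voom (Serpina1e -0.031), with no TMM factor (Serpina1a -0.065, Serpina1e -0.060, Serpina3n -0.063, Serpina1 sum -0.017) and with pooled vehicles (Serpina3c 0.12, Serpina3k 0.32, Serpina3m -0.059, Serpina3n -0.26, Serpina3 sum 0.28). In LBP livers they turned with no TMM factor (Serpina1d -0.22, Serpina1e -0.23, Serpina3m -0.11, Serpina1 sum -0.20), with no filter (Serpina1e -0.0073) and with pooled vehicles (Serpina1e -0.37, Serpina3k -0.0078, Serpina3n 0.21, Serpina1 sum -0.18). LBP livers had 2 called members by DESeq2 and 0 by limma-voom, with no TMM factor, with only the compared libraries, with pooled vehicles and with the replicate block. Of 11969 genes, DESeq2 called 1206 there and limma-voom 3. The fit with no TMM factor called 340, that with pooled vehicles 1255 and that with the replicate block 2. With only the compared libraries 0 of 10017 genes were called. None of these turned values had passed the threshold before, except those of Serpina3k and the Serpina3 sum in FSTL3 livers.

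Leaving out single libraries gave the following lowest and highest values. In EPDR1 livers the Serpina1 sum was -0.030 to 0.15, the Serpina3 sum -0.076 to 0.17, Serpina1c -0.075 to 0.15, Serpina1e -0.12 to 0.18, Serpina3c -0.033 to 0.27, Serpina3k -0.098 to 0.13 and Serpina3n 0.54 to 1.15. In FCN2 livers the Serpina1 sum was -0.098 to 0.26, the Serpina3 sum -0.26 to -0.039, Serpina1a -0.12 to 0.22, Serpina1e -0.25 to 0.27, Serpina3n -0.094 to 0.27 and the count 0 to 1. In LBP livers the Serpina1 sum was 0.065 to 0.18, the Serpina3 sum 0.19 to 0.56, Serpina1b -0.30 to 0.19, Serpina1c -0.085 to 0.81, Serpina1e -0.085 to 0.13, Serpina3m -0.39 to 0.42, Serpina3n -1.64 to 0.36 and the count 0 to 2. In FSTL3 livers members called numbered 8 against EPDR1 in each such fit and 4 to 8 against FCN2. Between vehicles they numbered 1 to 5. These fits tested 11837 to 12333 genes. Genes called in all numbered 4254 to 7170 for FSTL3 against EPDR1, 4559 to 7441 against FCN2 and 857 to 3715 between vehicles. Against the vehicle of the same batch they numbered 3853 to 6950 in FSTL3 livers, 0 to 2314 in FCN2 livers and 89 to 2145 in LBP livers.

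Replicate numbers were not treated as pairs in the main fit. Deviations of libraries with the same number correlated at -0.14 to 0.22. In EPDR1 livers replicates 2 to 4 had 0.18 to 0.22 and replicate 1 had -0.047. Libraries with different numbers were not compared in this way, so these values do not decide whether samples were paired. With the replicate block FSTL3 livers kept a count of 7 members, with 4506 of 11969 genes called. Serpina3c in LBP livers then had 2.07 (edgeR adjusted p = 0.0741) and Serpina1e in EPDR1 livers -0.0072. Depth limits Serpina3c most, with 1 to 17 reads in libraries of batch 1.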
